A study of Mus musculus with 8 samples.

Results

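Wfdc21, Serpinb1a, Slpi, Stfa1, Stfa2 and Stfa3 encode 6 proteins of protease inhibitor families that myeloid cells express. They were taken as the genes whose name in the scanner files is one of these symbols or an older one, and Wfdc21 stands there as 1100001G20Rik. The 6 genes had 9 probes among 41174 probes and 28786 gene names on the array. Of these, 5 probes reached the background level described below on enough arrays to be tested, and they stand for 5 of the 6 genes among 18266 genes tested. The genes were chosen by earlier results on these same log2 levels in spleen and blood, so their levels and differences between the tissues are given as a description, with no test.

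The series compared Ly-6C-high monocytes of the spleen with their counterparts in the blood, 4 samples from each tissue. All samples came from female C57BL/6 mice, an inbred strain, aged 8 to 12 weeks, healthy, untreated and fed chow, and a group of 4 mice gave both tissues. Monocytes were sorted as cells with high CD11b and Ly-6C that were low in CD90, B220, CD49b, NK1.1, Ly-6G, I-Ab, CD11c and the macrophage antigen encoded by Adgre1, at 1000 cells a sample, with RNA integrity of at least 8. From each, 5 ng of RNA was amplified and hybridized with Cy3 to a 1-colour Agilent array. No label says that a replicate number stands for a mouse, so p-values measure only the spread between these samples.

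Protease inhibitors hold in check the enzymes that myeloid cells carry for killing microbes and breaking down matrix. Stefins are cystatin-family proteins that stay in the cytosol and block papain-like cysteine cathepsins. Serpins trap serine proteases by a change of shape after they are cleaved, and proteins with a WAP (whey acidic protein) domain include inhibitors of neutrophil elastase. In the mouse, stefin A genes, Wfdc21 and Slpi are known as transcripts of maturing neutrophils and activated macrophages, and Serpinb1a protects neutrophils from their own granule proteases.

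The probe sequences are shown because the stefin genes are near copies and their probes could share signal. Capitals mark 10 bases that the probes named Stfa1 and Stfa3 have in common, and sequences are given 5′ to 3′ as the scanner files hold them, with positions on the mouse build mm7.
Stfa1, A_52_P487686, chr16:36030195-36030254, minus strand: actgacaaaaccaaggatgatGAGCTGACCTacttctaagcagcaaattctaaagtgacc
Stfa1, A_51_P132185, chr16:36030215-36030274, minus strand: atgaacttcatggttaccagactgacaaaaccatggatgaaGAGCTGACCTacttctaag
Stfa1, A_51_P384894, chr16:36030180-36030239, minus strand, first 30 bases: gatgatGAGCTGACCTacttctaagcagca
Stfa3, A_51_P504815, chr16:36158986-36159045, minus strand: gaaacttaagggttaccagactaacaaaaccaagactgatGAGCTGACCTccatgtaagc
Stfa2, A_51_P135944, chr16:36113578-36116655, minus strand: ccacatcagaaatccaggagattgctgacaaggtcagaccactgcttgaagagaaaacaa
Serpinb1a, A_51_P181297, chr13:32208400-32208459, minus strand: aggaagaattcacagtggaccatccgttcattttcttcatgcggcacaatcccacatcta

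The Stfa1 probes A_51_P384894 and A_52_P487686 overlap by 45 identical bases, and A_51_P132185 matches A_52_P487686 at 38 of 40 aligned bases. The Stfa3 probe matches A_51_P132185 at 47 of 59 aligned bases and A_52_P487686, the Stfa1 probe that was tested, at 35 of 41. Signal could therefore pass between the Stfa1 and Stfa3 probes, and their values are uncertain to that extent. The Stfa2 probe shares no run of more than 7 bases with a Stfa1 or Stfa3 probe. A run of 25 bases links A_51_P384894 and A_52_P487686 with the probe of a further stefin gene, Csta2. All 3 probes named Stfa1 carry an accession that RefSeq now pairs with Cstdc6, another stefin A gene of chromosome 16, while RefSeq's Stfa1 has a different transcript. They are called Stfa1 here as in the scanner files.

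The other 3 probes share no run of 25 bases with any other probe of the array, and neither does that of Serpinb1a. They are shown by their first 30 bases, to identify the probe behind the widest difference and the 2 Slpi probes that disagree.
Wfdc21, A_51_P108226, chr11:83822431-83822490, plus strand: gagctctgtgaccaagaaaacagttgaaaa
Slpi, A_52_P472324, chr2:164095003-164095062, minus strand: ttactgttttaccactaacatctccttttg
Slpi, A_51_P135148, chr2:164100217-164100276, minus strand: tgagtaacaggagccacaaggtatgtctga

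Values are log2 levels from the authors' value table, in which every array has the same median to 2 decimals, 7.31. A level of 6.8 was taken as the background level, since from there up at least 95% of probes per step of 0.1 passed the scanner software's own test against background. For blood 1, blood 2 and blood 3, the scanner file and the table column are not of the same array. The rank correlation of file and column was 0.842 to 0.872 and rounded to 1 for the other 5 samples, so results are also given without them. In those 5 files 26539 to 29572 probes were well above background, and with 4 arrays a tissue the number of arrays limits the precision. Monocyte genes were bright in both tissues, and of 7 tested, 2 were higher and 5 lower in spleen, with 0 past the adjusted threshold. Csf1r, which encodes the M-CSF receptor, averaged 13.30 ± 0.42 in spleen and 13.14 ± 0.39 in blood (SD, n = 4 each), and Itgam, which encodes CD11b, averaged 12.11 ± 0.18 in spleen and 12.11 ± 0.11 in blood. The chemokine receptor gene Ccr2 had 13.43 to 13.87 in spleen (n = 3), all below the 13.89 to 14.47 of blood, and Fn1, fibronectin, differed by -0.54. In these bulk samples, fewer cells of a type and less RNA per cell cannot be told apart.

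Wfdc21 and Serpinb1a were higher in the spleen samples, while Slpi and the stefins had overlapping ranges in the tissues. Of the 5 tested inhibitor genes, 2 had every spleen value above every blood value, against 1.88% of the 18266 genes tested. The same 2 genes were at least 4-fold higher in spleen, against 0.142% of all genes. Both shares stand beside values that chose the genes, and nothing is read from them.

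**Figure D1:**
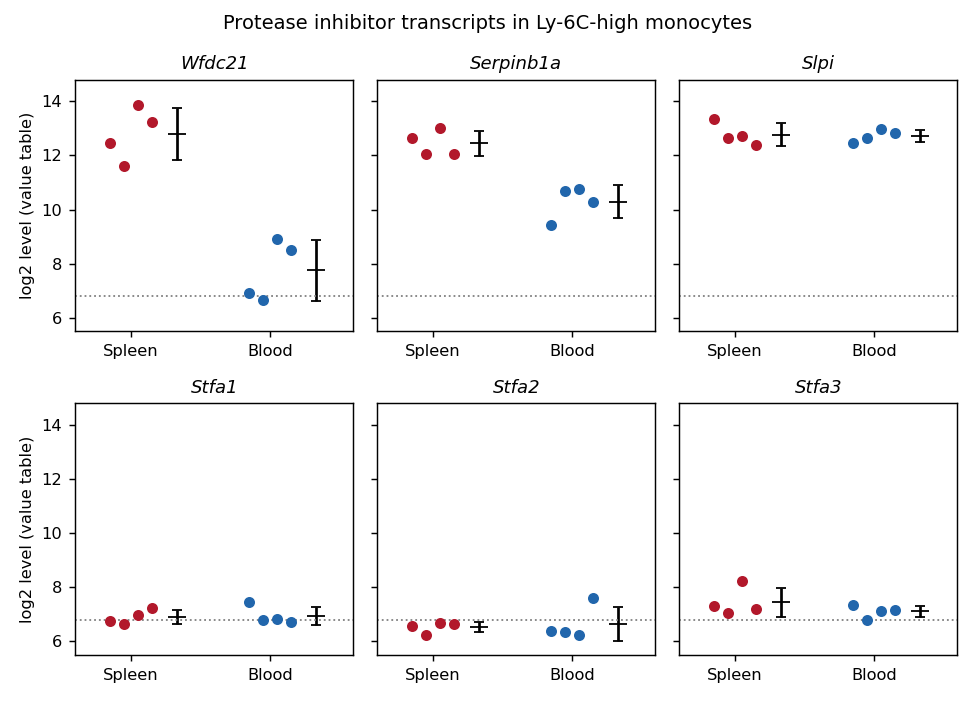
Log2 level of the 6 protease inhibitor genes in each of 4 spleen (red) and 4 blood (blue) samples, in the order of the replicate number. Black bars give the mean ± SD and the dotted line the background level of 6.8. Wfdc21 and Serpinb1a have no overlap between the tissues, Slpi is bright in all 8 samples, and the stefins lie near the background level.

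Wfdc21, also called Wdnm1-like, encodes a small secreted WAP domain protein. Its log2 levels in spleen samples 1 to 4 were 12.45, 11.62, 13.87 and 13.22, against 6.91, 6.67, 8.92 and 8.49 in blood samples 1 to 4. The lowest spleen value lay 2.70 above the highest blood value. In blood, sample 2 was below the background level and sample 1 just above it. The means were 12.79 ± 0.97 in spleen and 7.75 ± 1.13 in blood (SD, n = 4 each), a difference of 5.04, or 32.9-fold. The size of the fold is uncertain, as blood 1 and blood 2 lay near the background level. The difference was the 4th highest of the 18266 tested. Without blood 1 to 3, so with blood 4 as the only blood sample, the difference in the table was 4.30. Within each tissue, samples 3 and 4 were the higher ones and sample 2 the lowest.

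Serpinb1a encodes the mouse counterpart of human SERPINB1, an inhibitor of neutrophil elastase, cathepsin G and proteinase 3. Spleen samples 1 to 4 had 12.65, 12.04, 13.02 and 12.06, against 9.43, 10.69, 10.77 and 10.29 in blood samples 1 to 4. The tissues were separated by 1.28, and blood 1 was the lowest of all. The means were 12.44 ± 0.48 in spleen and 10.29 ± 0.61 in blood (SD, n = 4 each), a difference of 2.15, or 4.44-fold. Unlike Wfdc21, Serpinb1a was above the background level in every blood sample. Its difference ranked 21st, it was 1.86 without blood 1, and it was 2.15 with blood 4 as the only blood sample.

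Slpi encodes secretory leukocyte peptidase inhibitor, a WAP domain protein that blocks elastase and cathepsin G. The probe A_52_P472324 gave 13.36, 12.65, 12.71 and 12.38 in spleen samples 1 to 4, against 12.45, 12.64, 12.99 and 12.83 in blood samples 1 to 4. The tissues overlapped, with spleen 1 the highest and spleen 4 the lowest of all 8. The means were 12.77 ± 0.42 in spleen and 12.73 ± 0.23 in blood (SD, n = 4 each), so the difference of 0.05 was smaller than either SD.

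The second Slpi probe, A_51_P135148, gave 6.56, 6.72, 6.87 and 6.52 in spleen and 6.96, 6.56, 6.75 and 6.85 in blood. It lay at or around the background level and did not pass the filter. The 2 probes are 5154 bases apart on mm7, whereas the Slpi gene spans 2438 bases in RefSeq. Which of them lies in the Slpi transcript was not examined here, and Slpi is represented by the brighter probe, A_52_P472324, by the rule used for every gene.

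Stfa1, Stfa2 and Stfa3 encode stefin A proteins, cytosolic inhibitors of cysteine cathepsins. Stfa3 was the only one at or above the background level in all 8 samples, with 7.30, 7.05, 8.23 and 7.20 in spleen and 7.33, 6.81, 7.12 and 7.17 in blood. Spleen 3 stood above the other values, and the remaining ones overlapped. The means were 7.44 ± 0.53 in spleen and 7.11 ± 0.22 in blood (SD, n = 4 each), a difference of 0.34 that fell to 0.08 without spleen 3.

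The brightest Stfa1 probe, A_52_P487686, gave 6.74, 6.63, 6.97 and 7.22 in spleen and 7.45, 6.79, 6.81 and 6.71 in blood. Both tissues had 2 samples on each side of the background level, and blood 1 was the highest. The difference was -0.05, and 0.12 without blood 1. The other probes, A_51_P384894 and A_51_P132185, did not pass the filter and had differences of 0.23 and 0.11. Their highest value was that of spleen 4 on both, 7.35 and 7.33.

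Stfa2 was below the background level in all 4 spleen samples, at 6.59, 6.25, 6.68 and 6.64. In blood it had 6.38, 6.36, 6.24 and 7.60, so that blood 4 alone exceeded the level. It was not tested, and no fold change is given since both tissue means lie below the level. The scanner software's own test against background was passed in 4 of the 5 matching files: spleen 1, spleen 3, spleen 4 and blood 4. The table ranks probes as the scanner's signal before background subtraction does, which narrows the differences of dim probes.

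**Figure D2:**
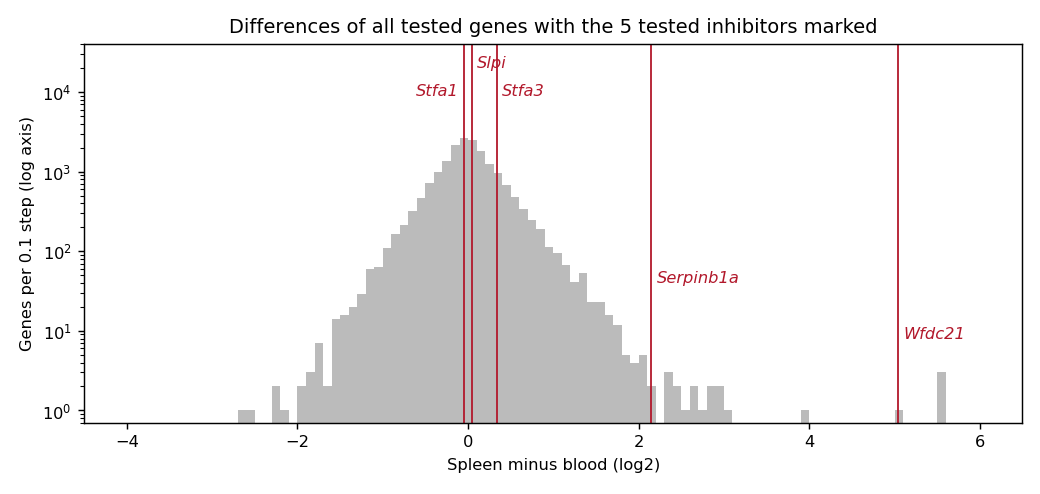
Number of tested genes (log axis) in steps of 0.1 of the difference spleen minus blood (log2). Red lines mark the 5 tested inhibitor genes: Stfa1, Slpi and Stfa3 lie in the bulk of the 18266 genes, with Serpinb1a at 2.15 and Wfdc21 at 5.04 on the right.

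Among themselves, the inhibitor genes did not share 1 pattern. After each gene's mean over the 8 arrays was subtracted, Wfdc21 and Serpinb1a were 1.65 apart (root mean square distance, log2), and Wfdc21 was 2.47 to 2.72 from each of the other 4. Distances among Slpi and the 3 stefins were 0.41 to 0.53. These are descriptions over 8 arrays, and near the background level they carry mostly the spread of dim spots.

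Of 16383 genes with values on all 8 arrays, the nearest to Wfdc21 were Ltf, which encodes the granule protein lactotransferrin, at a distance of 0.53, and S100a8, a calcium-binding protein of neutrophils and monocytes, also at 0.53. The median distance of all these genes to Wfdc21 was 2.72. S100a8 had 13.99, 13.66, 15.25 and 14.70 in spleen and 8.47, 6.79, 10.50 and 9.54 in blood. As with Wfdc21, samples numbered 3 and 4 were the higher ones in each tissue and sample 2 the lowest. The nearest to Serpinb1a were 0610007L01Rik at 0.34 and Gstcd at 0.45, with a median of 1.26. To the mean pattern of the 6 genes the nearest were Hsd11b1 (0.21), Treml4 (0.26), Leng1 (0.26), Manea (0.28) and Trim59 (0.28), with a median of 0.80. That mean was not scaled, so Wfdc21 and Serpinb1a, with differences of 5.04 and 2.15, weigh most in it. Slpi, whose tissue means were nearly level, was nearest to Mppe1 and 6530404N21Rik, and Stfa1 to Ssr3 and NAP026477-1. Stfa2 was nearest to Inha and Spna2, and Stfa3 to LOC668166 and Adamts9. For Slpi and the stefins these distances were 0.08 to 0.13.

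**Figure D3:**
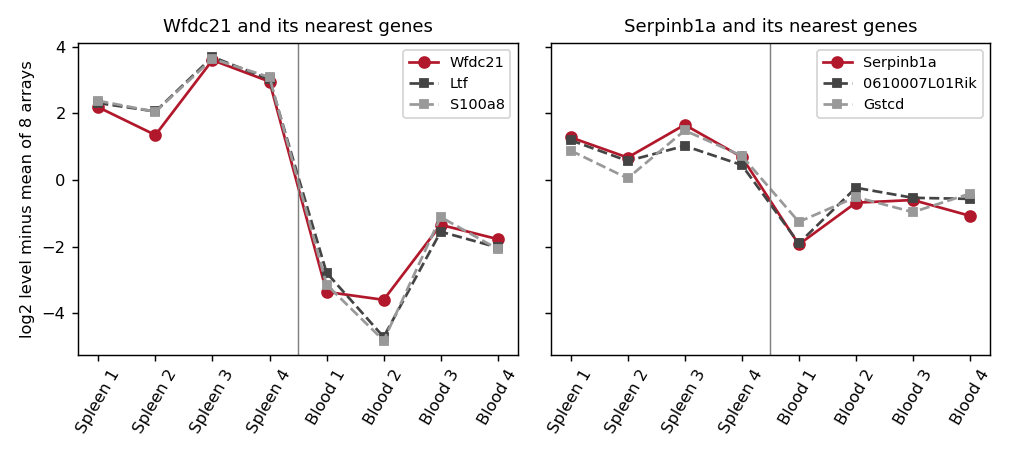
Log2 level minus the gene's mean of 8 arrays (vertical axis) across 4 spleen and 4 blood samples, for Wfdc21 with Ltf and S100a8 (left) and for Serpinb1a with 0610007L01Rik and Gstcd (right). In the left panel spleen 3 and spleen 4 are the highest samples and blood 2 the lowest for all 3 genes.

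Neutrophil markers are given beside Wfdc21 and Serpinb1a. Of 24 listed markers, 22 were on the array, and of 19 tested, 18 were higher and 1 lower in spleen, with a median difference of 0.87 against -0.01 for all genes tested. The adjusted threshold was passed by 0 of the 19, against 0.0% of all genes, and 9 had every spleen value above every blood value, against 1.88% of all genes. Those 9 were S100a8 at 5.57, Camp at 5.57, Ltf at 5.54, Lcn2 at 3.97, Cxcr2 at 2.59, Fcnb at 1.99, Pglyrp1 at 1.68, Itgb2l at 1.37 and Mpo at 0.87. The other 10 overlapped, among them Mmp9 at 1.30, Csf3r at 0.03 and Mmp8 at -0.08. The summed level was 17.22 to 18.35 in spleen and 15.88 to 16.40 in blood (log2), with missing values filled in. Chil3 was measured only in blood 4, at 15.68, and that value, filled in elsewhere, makes up most of the blood 1 to 3 sums. S100a9 had 16.74 and 17.18 in spleen 1 and 3. In spleen 2 and 4 it was empty and set to its lower mean over both tissues. Of the 22, 16 were at the background level or above in all 4 spleen samples and 11 in all 4 blood samples, and 0 were below it on all 8 arrays. Empty values counted as not at the level, as for S100a9 and Ngp in spleen and Chil3 in both tissues. The part of the neutrophil markers in the Wfdc21 and Serpinb1a differences was not tested.

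Of the other marker lists, that of red pulp macrophages was separated in its summed level too. This level was 11.13 to 11.90 in spleen and 10.19 to 10.88 in blood, and its part in the results was not tested either. Of 5 tested markers, 2, Vcam1 and Spic, had every spleen value above every blood value, against 1.88% of all genes tested. Cd163, C1qa and C1qb overlapped. C1qc, also in the sum, did not pass the filter. Its spleen values of 6.45 to 7.91 lay above its blood values of 6.17 to 6.35, which were below the background level. The summed levels of monocyte markers overlapped, at 17.52 to 18.34 in spleen and 17.87 to 18.02 in blood, as did those of B cell, NK cell, platelet, basophil and eosinophil, erythroid and dendritic cell markers. The monocyte sums rest largely on Lyz2, the brightest of these markers. It was empty in spleen 1, blood 1 and blood 2 and was set there to its mean over both tissues. T cell markers overlapped narrowly, at 10.54 to 11.83 in spleen and 10.31 to 10.55 in blood.

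The mismatch of the blood scanner files touched Slpi, Wfdc21, Serpinb1a and Stfa2. Scanner values are log2 background-subtracted signals relative to the array's 75th percentile. For Slpi they were 3.33 to 4.35 in the spleen files and 3.79 in the blood 4 file, but 2.54, 0.81 and -0.91 in the files of blood 1, 2 and 3. With all files the Slpi difference was 2.23, and with the 5 matching files only it was -0.01.

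For Wfdc21 the scanner values were 2.70 to 5.17 in spleen, -0.99 in blood 4, and -4.97 to -4.04 in the other blood files. The difference was 7.42 with all files and 4.81 with the matching ones. For Serpinb1a they were 2.97 to 4.21 in spleen and 1.11 in blood 4. The file of blood 1 held 4.49, above every spleen sample, and those of blood 2 and 3 held 0.72 and 1.20. The Serpinb1a difference was 1.56 with all files and 2.33 with the matching ones, so its direction was spleen higher both ways while its size was not settled by the scanner files. The computed Stfa2 value was 0.43 with all files and -2.85 with the matching ones, so its sign changed.

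**Figure D4:**
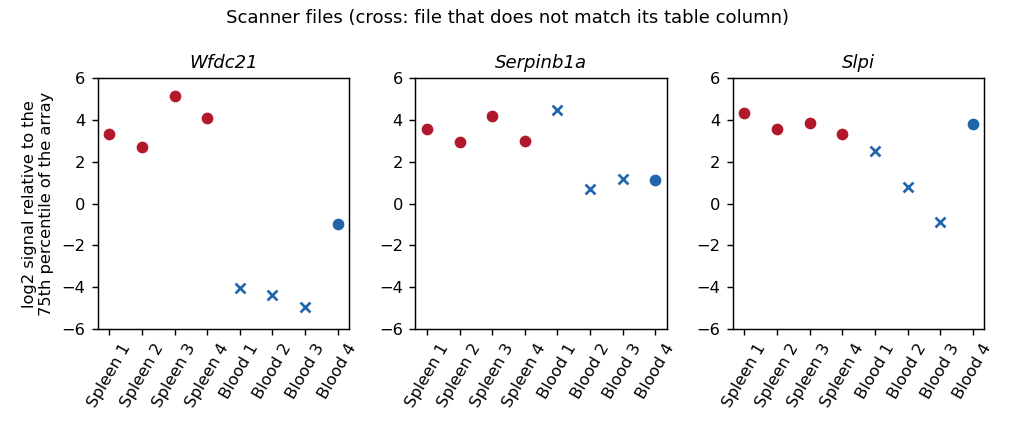
Scanner signal (log2, relative to the 75th percentile of the array) of Wfdc21, Serpinb1a and Slpi in the 4 spleen and 4 blood files. Crosses mark the 3 blood files that do not match the table's columns: Slpi in them lies at 2.54 or lower, while blood 4, which matches, lies at 3.79 among the spleen values.

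Serpinb1a has 2 close relatives in the mouse, Serpinb1b and Serpinb1c, which lie near it on chromosome 13. Their probes share runs of at most 7 bases with that of Serpinb1a and with each other's. Serpinb1c had 7.33, 7.76, 8.50 and 7.95 in spleen and 6.88, 6.87, 7.23 and 7.02 in blood, and all spleen values were the higher. The means were 7.89 ± 0.49 in spleen and 7.00 ± 0.17 in blood (SD, n = 4 each), a difference of 0.89 ± 0.27 (SE) that did not pass the threshold (limma adjusted p = 0.659, unadjusted 0.0084). A second Serpinb1c probe, A_52_P493477, had a difference of 0.97, also without overlap.

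Serpinb1b had 6.59, 7.38, 10.21 and 7.92 in spleen and 6.39, 6.28, 6.81 and 6.30 in blood, so spleen 1 overlapped with blood. Only blood 3 reached the background level among the blood samples. The difference was 1.58 ± 0.65 (SE, limma adjusted p = 0.857) and 0.85 without spleen 3, and its second probe, A_52_P86116, was below the level on every array that measured it. For each of the 3 serpin B1 genes, spleen 3 was the highest sample.

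**Figure D5:**
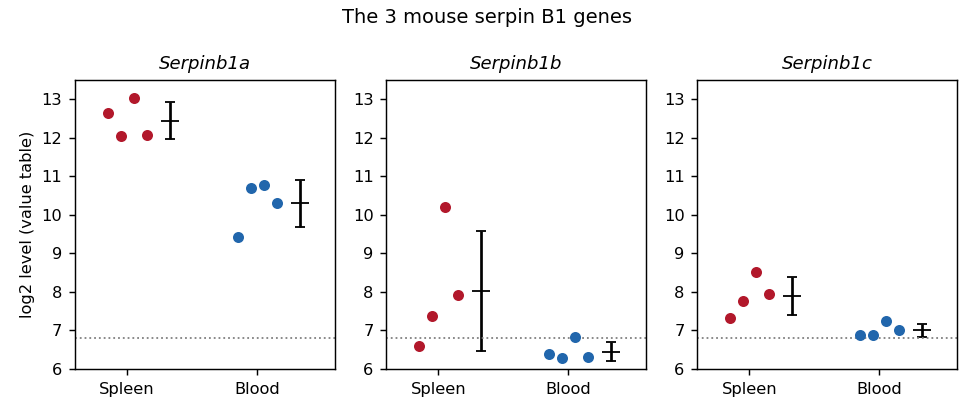
Log2 level of Serpinb1a, Serpinb1b and Serpinb1c in each of 4 spleen (red) and 4 blood (blue) samples. Black bars give the mean ± SD and the dotted line the background level of 6.8. Serpinb1a and Serpinb1c have no overlap between the tissues, and Serpinb1b overlaps through spleen 1.

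The wider protease inhibitor families and their target proteases formed 7 lists with 157 genes, of which 127 were on the array and 71 were tested. Of the 71, 0 passed the adjusted threshold in limma, 38 were higher and 33 lower in spleen, and 56 differed by less than 0.5. At an unadjusted p under 0.05 there were 6 (8.45%), against 5.43% of all genes tested: Serpinb1b, Serpinb1c and Itih5 higher, and Ctla2a, Ctla2b and Ctsc lower. Among all genes tested, 3.09% were higher and 2.34% lower at that p. Every spleen value lay above every blood value for 1, Serpinb1c, and below for 4, Ctla2a, Ctla2b, Ctsc and Itih2, the last with 3 spleen values. Together these are 7.04% of the 71, against 3.3% of all genes tested, of which 1.88% lay above and 1.41% below.

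The other stefins and secreted cystatins showed small differences. Of 5 other stefin genes on the array, 3 were tested: Cstb, a cathepsin inhibitor found in most cells, differed by 0.10, Csta2 by 0.03 and Stfa2l1 by 0.34 (limma adjusted p = 1 for each). Of the rest, Cstdc3 and Csta1 were below the background level on all 8 arrays. Cst3, which encodes the secreted cathepsin inhibitor cystatin C, averaged 14.55 ± 0.37 in spleen (n = 3) and 14.56 ± 0.24 in blood (SD, n = 4). The other tested secreted cystatin, Cst13, differed by 0.07.

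Of 9 other WAP domain genes tested, 2 were higher and 7 lower in spleen, with a median of -0.08 and 0 calls. Wfdc5 differed by -0.34, Wfdc18 by -0.27 and Wfikkn1 by 0.54, each with overlapping tissues, and Wfikkn1 by 0.10 without spleen 4. The 13 other clade B serpins had 9 higher and 4 lower, with a median of 0.08. After the serpin B1 genes, the smallest p was that of Serpinb6b, at a difference of 0.68 (limma adjusted p = 0.964). Of 11 serpins of other clades, 7 were higher and 4 lower, with Serpina3g at 1.09 (adjusted p = 0.937 in limma), or 0.64 without spleen 1. Serpinf2, which encodes the plasmin inhibitor alpha-2-antiplasmin, differed by 0.55, or 0.20 without spleen 3, and Serpina9 by -0.46.

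The 18 other protease inhibitors were split into 9 higher and 9 lower. The widest differences were those of Ctla2a at -2.59 ± 0.35 and Ctla2b at -2.24 ± 0.24 (SE), genes related to the propeptides of cysteine cathepsins (limma adjusted p = 0.0676 and 0.0536). Itih5 differed by 0.72 (limma adjusted p = 0.822) and Itih2 by -0.55 (adjusted p = 0.981 in limma).

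The target proteases did not pass the threshold. Of 15 tested, 7 were higher and 8 lower in spleen, with a median of -0.09. Ctsc, the cathepsin that activates neutrophil serine proteases, averaged 12.72 ± 0.06 in spleen and 13.29 ± 0.29 in blood (SD, n = 4 each; limma adjusted p = 0.764). Ctsg, which encodes the Slpi and serpin B1 target cathepsin G, differed by 0.58, with spleen 2 at 9.99 and the other spleen samples at 7.65 to 8.02, and by 0.03 without spleen 2. Elane, neutrophil elastase, averaged 7.43 ± 1.17 in spleen and 6.87 ± 0.28 in blood, with 2 samples of each tissue at or above the background level. Its difference was 0.56, and -0.01 without spleen 3. Prtn3, proteinase 3, differed by 0.13 and Ctsw, a cathepsin of cytotoxic lymphocytes, by 0.33.

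The promoters of the stefin A genes are shown because the probes named for these 3 genes lay near the background level. They are RefSeq's, on GRCm38.p6, and that of Stfa1 is of RefSeq's Stfa1, not of the Cstdc6 transcript whose accession the probes carry. The last 100 bases before the start are given, with capitals for matches on either strand to 3 motifs, which do not overlap there. One is TTTAAAA, which resembles the core promoter box near the start of many genes. Another is GAGGAA, the core of sites of the myeloid factor PU.1, and the last is TTNNGNAA, a form of C/EBP sites.
Stfa1, chr16:36277048-36277147, plus strand: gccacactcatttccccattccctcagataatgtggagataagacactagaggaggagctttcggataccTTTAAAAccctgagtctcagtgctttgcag
Stfa2, chr16:36408364-36408463, minus strand: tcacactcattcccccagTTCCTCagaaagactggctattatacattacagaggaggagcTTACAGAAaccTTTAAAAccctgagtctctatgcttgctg
Stfa3, chr16:36455393-36455492, minus strand: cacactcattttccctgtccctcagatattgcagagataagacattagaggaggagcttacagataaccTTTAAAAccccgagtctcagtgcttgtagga

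TTTAAAA began 30, 29 and 31 bases before the start of Stfa1, Stfa2 and Stfa3, and 8.10% of 32851 promoters of the table hold it in their 250 bases. GAGGAA stood in all 3 on the minus strand, 178, 82 and 135 bases before the start, as in 23.3% of all promoters. TTNNGNAA was found 109 bases before the start of Stfa1 and 40 before that of Stfa2, with none in the window of Stfa3, against 36.8% of all promoters. The motif AGATAAG stood at 64 bases before Stfa1 and 66 before Stfa3, against 2.74%. A run of 15 bases, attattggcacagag, was common to all 3 windows. In the promoter of Slpi, TTNNGNAA had 3 matches, and the table's promoters covered 4 of the 6 genes.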

How the data were processed

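RNA of 4 spleen and 4 blood samples of sorted monocytes was measured on 1-colour Agilent arrays. The deposited scanner files hold spot intensity values with local background subtracted, written by Agilent Feature Extraction (version 9.5.1.1), per the file headers. The deposited value table holds log2 values made by the authors; limma is named in the submitters' processing notes. All 8 columns have the same median, so the values are read as quantile-normalized. Neither the background handling nor the limma version is given in the sources used here.

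The value table was used throughout, because 3 blood scanner files do not match their columns. Probes at or above 6.8 on at least 4 of 8 arrays with at least 3 values per tissue were kept (25471), and the brightest stood for its gene. Spleen was compared with blood, unpaired, by limma 3.58.1 (lmFit and eBayes, R 4.3.3, with version 1.17.8 of data.table), with Benjamini-Hochberg adjustment over 18266 genes at 0.05. The procedure was tested on simulated data. Summed levels add linear values, with missing ones set to the gene's mean. Folds are of log2 means.

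The inhibitor genes, lists and tests were chosen with earlier results of these data known. Named were all 6 genes, in each list the 3 smallest p-values and genes without overlap, and the 2 nearest patterns per gene and 5 to their mean. Gene names are those of the scanner files, updated through RefSeq by accession for 22951 probes (55.7%). Alternatives were the scanner files (75th percentile scaling, or normexp with quantile), no filter, all probes or their mean, array weights, an intensity trend, the replicate number as a block, values within 1 slide, and leaving out each sample.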

Additional observations from a re-analysis of the deposited data

Results flagged for a closer look

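Among 57 sets of 4 samples, those of the inhibitor genes and of the named genes in the lists, 4 had a sample far from the other 3 by Dixon's criterion, which chance alone meets in about 1 in 20. Stfa1 in blood 1 was at 7.45, with the other blood samples at 6.71 to 6.81. Stfa2 in blood 4 was at 7.60, with the others at 6.24 to 6.38. For Itih5, a gene of the inter-alpha-trypsin inhibitor heavy chain family, blood 1 was at 7.71, with the other blood samples at 7.07 to 7.18. Ctsg in spleen 2 was at 9.99, with the other spleen samples at 7.65 to 8.02.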

How the results depend on the processing

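No gene passed the adjusted threshold of 0.05 in limma, and 992 did at an unadjusted p under 0.05. The count was 9 once arrays were weighted, 8 under a robust variance that follows the intensity, 7 if a gene's probes were averaged, and 4 in either scaling of the scanner files. Without 1 sample it was 0 to 3: 3 without blood 1, 2 without blood 2, 3 without spleen 1 and 1 without spleen 2. With the replicate number as a fixed block it was 1, and it was 13 when the block was random (correlation 0.21). Same-numbered samples correlated at 0.09 to 0.14 in their deviations from the tissue means, each higher than any pair of different numbers (at most 0.03), which is a hint from the data and not the design. Of the protease inhibitor and protease lists, 0 genes passed, but Ctla2a and Ctla2b did (2) with array weights, with the random block and without blood 1, and Ctla2b (1) with the intensity trend and with the mean over probes. Leaving out a sample gave 0 to 2.

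The Wfdc21 difference was 7.42 with all scanner files, 4.73 within the 1 slide where spleen 4 and blood 4 both match, and 4.68 to 5.43 without 1 sample. That of Serpinb1a was 1.47 with normexp and quantile, 1.77 within the slide and 1.86 to 2.31 without 1 sample. Slpi was 2.23 and 2.12 in the 2 scalings of the scanner files and -0.45 within the slide, and -0.15 to 0.18 without 1 sample. Stfa1 was 0.39 with all scanner files, 0.60 with the matching ones and 0.51 within the slide, and -0.16 to 0.12 without 1 sample. Stfa2 was below the background level in all spleen samples and in 3 of 4 blood samples, so the size of its differences is not interpreted. The computed difference was 0.43 with all scanner files and -0.24 to 0.21 without 1 sample. With blood 4 as the only blood sample, it was -2.85 (matching scanner files), -1.06 (matching columns) and -0.97 (within the slide). Stfa3 moved by less than its SD throughout, with 0.08 to 0.47 without 1 sample. Why the scanner files and the table differ was not tested.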
